A study of Arabidopsis thaliana with 39 samples.

Results

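The expression of 10 serine/arginine-rich (SR) splicing factor genes of Arabidopsis thaliana was followed through 39 RNA sequencing libraries. The 10 genes were SR34b (AT4G02430), SR34 (AT1G02840), SR34a (AT3G49430), SR30 (AT1G09140), RSZ21 (AT1G23860), RSZ22 (AT4G31580), SC35 (AT5G64200), SCL33 (AT1G55310), RS40 (AT4G25500) and RS41 (AT5G52040), found by their locus identifiers among the 28775 genes listed for seedlings and the 33562 listed for apices. The set was chosen by the SR34b values in ld and Col0, with its low signal in ld seedlings of set 2 known, and because SR34b lies close to LD on chromosome 4. Each of the 13 groups held 3 libraries. Seedling set 1 held fld, ld and Col0, the wild type. Seedling set 2 held the double mutant ld pol2a, ld, pol2a and Col0, and seedling set 3 held ld and Col0. The apex set held ld pol2a, ld, pol2a and Col0, each sample made of 30 dissected shoot apices. All plants were 7 days old and grew under 16 h of light per day. The ld mutant is defective in LD, a nuclear homeodomain protein, and fld in FLD, a histone demethylase-like protein, both of the autonomous flowering pathway. The pol2a mutant is affected in POL2A, which encodes the catalytic subunit of the replicative polymerase epsilon. Which alleles were used is not stated in the labels, nor whether replicates came from separate cultures, so the p-values cover the spread of these samples alone, and that spread may be technical.

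SR proteins carry an RNA recognition motif and a tail rich in arginine and serine. They bind exons of the precursor RNA, bring U1 and U2AF to the splice sites and so set which sites are used. In plants they fall into families: the SR group close to the human factor SF2/ASF (SR34b, SR34, SR34a and SR30), the RSZ group with a zinc knuckle (RSZ21 and RSZ22), the SC and SCL group (SC35 and SCL33) and the plant-specific RS group (RS40 and RS41). SR34b is known for its role in cadmium tolerance through splicing of the metal transporter gene IRT1.

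The SR34b gene lies at chr4:1068974-1072263 on the forward strand of TAIR10.1, and its merged exons there cover 2246 bases. LD lies at chr4:1123475-1128490, 51211 bases further along, with 22 annotated genes between them. SR34 on chromosome 1 is the closest relative of SR34b here, with 83.4% identical bases over 866 aligned bases of coding sequence. The longest run of exon bases that SR34b shares with SR34 is 29 bases, and with any other of the 10 genes it is 16. A homologous coding exon of the 4 SF2/ASF-like genes shows how far the copies can be told apart by their reads. The sequences are from the RefSeq reference TAIR10.1, written 5′ to 3′ on the strand of the gene, and capitals mark bases that differ from SR34b. They lie at chr4:1069666-1069740 (SR34b), chr1:627308-627382 (SR34), chr3:18333018-18333092 (SR34a) and, on the reverse strand, chr1:2945382-2945456 (SR30).
SR34b: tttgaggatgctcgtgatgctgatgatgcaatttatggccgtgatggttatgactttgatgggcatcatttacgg
SR34: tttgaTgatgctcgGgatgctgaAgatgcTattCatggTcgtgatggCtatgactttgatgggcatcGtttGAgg
SR34a: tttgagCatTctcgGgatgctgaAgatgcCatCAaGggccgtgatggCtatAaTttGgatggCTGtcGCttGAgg
SR30: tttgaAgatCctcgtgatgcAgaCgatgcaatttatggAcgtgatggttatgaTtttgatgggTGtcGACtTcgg
Of the 75 bases, SR34 shares 65 with SR34b, SR30 shares 63 and SR34a shares 56. RS40 and RS41 are the other close pair, with 82.3% identical coding bases and a longest shared exon run of 36 bases. Reads within such runs could belong to either gene, and the strand setting of the read counting is not stated in the labels, which concerns RS41 most: 20.9% of its exon length is shared with a gene on the opposite strand.

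Per library, seedlings had 10404890 to 37776373 reads and apices had 11954021 to 21095025 reads, which in seedlings were recovered from the deposited signal. Replicates were compared by a chi-square per degree of freedom, for which counting noise alone gives 1. Set 1 gave values between 0.70 and 1.27, set 2 between 1.07 and 1.58, and set 3 between 0.32 and 0.87, so that set 3 libraries of a group differed by less than counting noise. In sets 1 and 2 the last direction of variation among libraries of the same group held 0.0156% and 0.021% of that variation, close to nothing. In the apex set the ld library 3 stood apart, at 8.15 and 9.12 from the other ld libraries, while those 2 were 2.82 from each other. FLD signal was 6.20 to 16.6 in fld, against 55.4 to 69.2 in Col0. Deposited LD signal in ld seedlings was not below Col0 in any set, and relative to the shift defined below it was lower in set 3 alone (-0.26, adjusted p = 0.00249, limma), so it does not check that label. In apices LD was at 4.23 to 11.2 TMM-scaled CPM (read counts scaled to library size) in ld and at 14.7 to 21.4 in Col0. FLC is the floral repressor that both pathway genes hold down, and its exons are shared over 68.1% with a gene on the opposite strand. It was higher in every fld, ld and ld pol2a library than in the Col0 libraries of its table. In pol2a FLC was lower than in Col0, at -3.09 in set 2 relative to the shift (adjusted p = 3.1e-13, limma). In pol2a apices its change was -1.77 (adjusted p = 0.0102, edgeR). Relative to the shift, POL2A was higher in pol2a than in Col0 of set 2 (0.67, adjusted p = 1.3e-08, limma). In pol2a apices it was not called (0.48, adjusted p = 0.411, edgeR), so POL2A RNA does not check the pol2a label. Of 5 shoot meristem markers, WUS was at 0 in all 3 ld apex libraries and in no other apex group. WUS was also at 0 in all Col0 libraries of each seedling set. The 5 markers together summed to 12.7 to 14.7 CPM in ld apices, against 9.81 to 12.1 in Col0.

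The deposited seedling signal is a count divided by 1 factor per library, and on that scale the median gene was shifted. In log2 units the shift in set 1 was 1.66 for fld and 1.23 for ld. In set 2 it was 0.56 for ld and 0.06 for pol2a, and ld of set 3 had 0.69. For the double mutant it was 1.48 against Col0 and 1.42 against pol2a. Changes below are therefore given relative to the shift, after median-of-ratios scaling, on the log2(signal + 1) scale with the standard error (SE), and "scaled signal" means a level on that scale. Adjusted p-values are from limma in seedlings and from the quasi-likelihood test of edgeR in apices, with Benjamini-Hochberg adjustment over all genes tested, and a gene is called at 0.05. All 10 genes passed the filters on low values in all 4 tables. In these bulk samples fewer cells of a type and less RNA per cell cannot be told apart.

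SR34b had the lowest level per kb of exon of the 10 genes in Col0 in every table. In set 1 it had 55.6 ± 3.12 signal per kb (SD, n = 3), against 97.3 ± 3.84 for SCL33, the next lowest. SR34 had the highest, with 277 ± 6.96 signal per kb, followed by RS41, RS40, SR34a, SR30, SC35, RSZ22 and RSZ21. Among neighbours in that order, SR34a and SR30, SC35 and RSZ22, and RSZ22 and RSZ21 overlapped between libraries. SR34 and RS41 also stood at the top of sets 2 and 3 and of the apex, and SCL33 next to last in every table. The order between them differed: SR30 came right after SR34 and RS41 in sets 2 and 3, and right before SCL33 in apices, where it had 6.05 ± 0.32 CPM per kb. SR34b in Col0 apices had 0.34 ± 0.11 CPM per kb, against 51.5 ± 2.97 for SR34, and rested on 7, 15 and 10 reads.

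**Figure D1:**
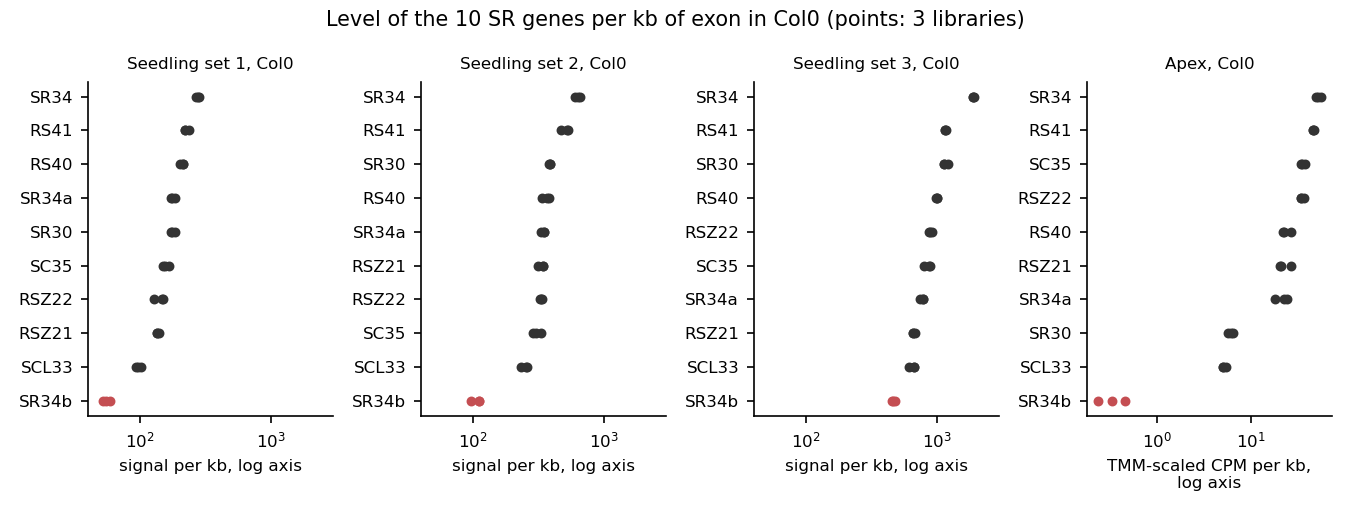
Level of the 10 SR genes per kb of merged exon in Col0, one panel per table, on a log axis; each point is 1 of 3 libraries and SR34b is red. SR34b lies below the other 9 genes in each panel and SR34 above them.

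SR34b had a signal of 588, 638 and 610 in ld of set 1, against 124, 118 and 132 in Col0, all 3 ld libraries above all Col0 libraries. In set 2 it was the other way round: 90.5, 101 and 98.0 in ld, against 218, 249 and 250 in Col0. In set 3 it had 1188, 1231 and 1221 in ld, against 1073, 1040 and 1029 in Col0. SR34b chose the genes through its ld values, so its ld changes against Col0 are a description with no test. Relative to the shift the change was 1.05 ± 0.05 in set 1. It was -1.85 ± 0.10 for set 2 and -0.48 ± 0.03 for set 3. SR34b was therefore higher in ld in 1 seedling set and lower in the other 2. In set 3 the direction depended on the scale, since its deposited signal was 0.21 higher in ld on the log2 scale. In set 2 it was lower in ld on both scales. Of 19274 genes tested in set 2, 21 had a lower ld change than SR34b (0.109%). In set 3 it was 783 of 20959 (3.74%), and in set 1 288 of 18906 had a higher one (1.52%). These ranks use the values that chose the genes, so they are a description too.

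**Figure D2:**
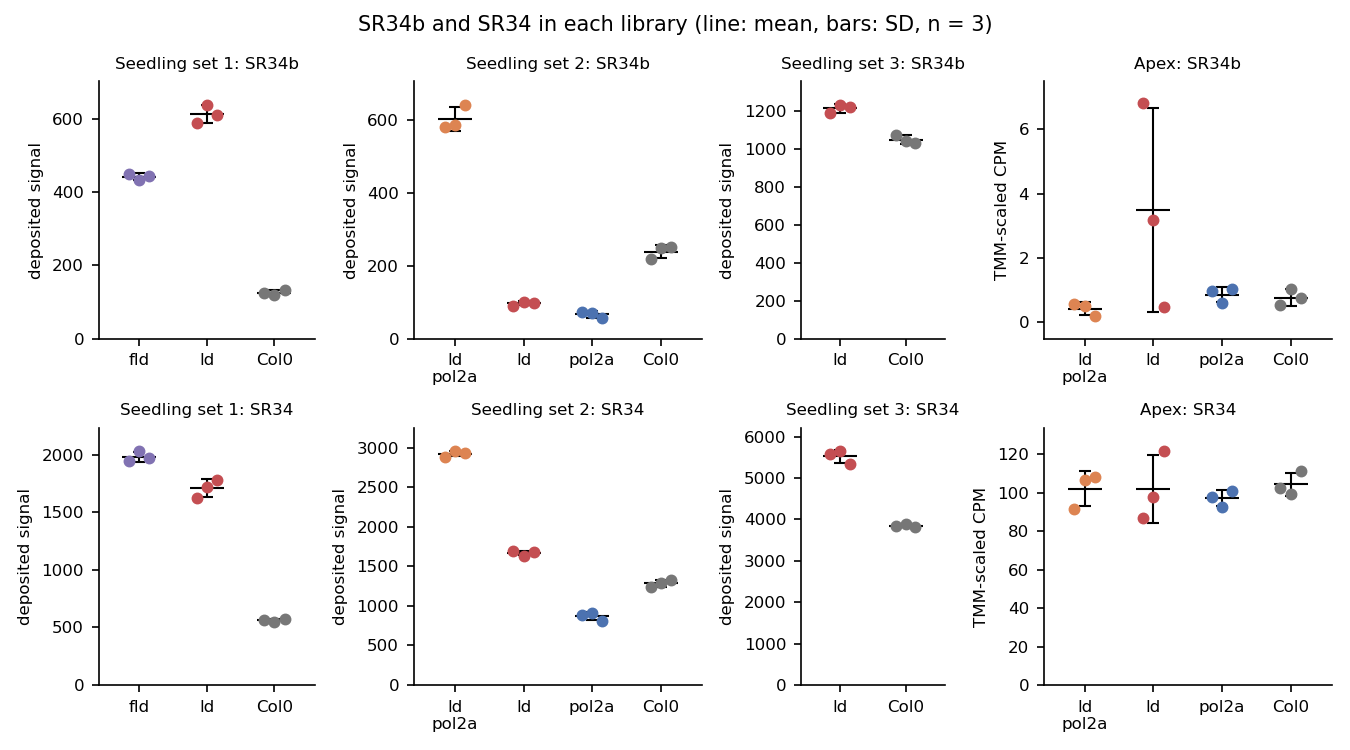
SR34b (top) and SR34 (bottom) in every library by group, in deposited signal for seedlings and TMM-scaled CPM for apices; points are libraries, lines means and bars SD of 3. In set 2, SR34b sits near 100 or below in ld and pol2a and above 200 in ld pol2a and Col0.

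The comparisons of fld and pol2a with Col0 use the Col0 libraries that chose the genes, so SR34b is described there with no test as well. In fld of set 1 its scaled signal was 271, 273 and 276, against 244, 235 and 253 in Col0, without overlap. The change was 0.17 ± 0.05. In pol2a of set 2 the scaled signal was 99.8, 96.8 and 77.4, against 313, 354 and 364 in Col0. SR34b was lower by 1.91 ± 0.10 on the log2 scale, or 3.75-fold, and 190 of 19274 genes had a lower change (0.986%). In ld pol2a it was 307, 302 and 321, against 99.8, 96.8 and 77.4 in pol2a, and these groups share no library with ld or Col0, so this comparison was tested. SR34b rose by 1.76 ± 0.10, or 3.39-fold (adjusted p = 1.0e-11, limma). Within set 2 this change by ld in pol2a had the opposite sign to the one in the wild type, which chose the genes. The ld change in the wild type of set 1, at 1.05, had the same sign. The interaction, the ld change with pol2a minus the ld change without it, was 3.61 ± 0.14 for SR34b. It uses the ld and Col0 libraries of set 2 and is given with no test. For the other 9 genes the interaction also holds the comparison that chose the genes, so their counts are a description. Limma placed 7 of the 9 past its threshold on the higher side and 0 on the lower side, against 25.3% and 26.5% of all genes. Against Col0, ld pol2a differed by -0.15 ± 0.10 for SR34b, with overlapping libraries.

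The lower signal in ld of set 2 was shared in direction by some other SR genes, at a smaller size. Among the other 9 genes SR30, a relative of SR34b that is itself alternatively spliced, was at 971, 934 and 1037 scaled signal in ld, against 1260.0, 1246 and 1254 in Col0. SCL33 was at 739, 815 and 771 in ld, against 964, 967 and 889.7 in Col0. SR34 was at 1638, 1591 and 1659 in ld, against 1779, 1826 and 1934 in Col0. In all 3 the ld libraries lay below the Col0 libraries. The changes were -0.35 ± 0.05 for SR30, -0.28 ± 0.06 for SCL33 and -0.18 ± 0.04 for SR34. The remaining 6 lay between -0.13 and 0.02. In this comparison, which chose the genes, limma placed 3 of the 9 past its threshold on the lower side and 0 on the higher side, as it did 16% and 18.7% of all genes. Without ld library 3 it was 5 of the 9, with SR34a at -0.15 and RS40 at -0.19, and without Col0 library 1 RS40 was also past it at -0.18. On the deposited scale all 9 were higher in ld, by 0.20 to 0.57, and SR34b alone of the 10 was lower. The median of the 9 was -0.12 relative to the shift and 0.44 in deposited signal, against 0.01 and 0.56 for all genes.

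In set 1 most SR genes rose relative to the shift in both mutants. In ld, limma called 7 of the other 9 genes higher and 0 lower, against 25.5% and 27.7% of all genes. SR30 had 1227, 1345 and 1335 scaled signal in ld, against 778, 779 and 806 in Col0. It rose by 0.72 ± 0.04 (adjusted p = 2.9e-12). SCL33, an SC35-like factor that also regulates its own splicing, had 814, 749.8 and 806 in ld, against 524, 505 and 475 in Col0. It rose by 0.66 ± 0.05 (adjusted p = 2.1e-10). SR34 had 1394, 1364 and 1486 in ld, against 1102, 1090.3 and 1102 in Col0. It rose by 0.36 ± 0.04 (adjusted p = 1.1e-07), and for all 3 genes the groups did not overlap. RSZ22 (0.19), RSZ21 (0.15), SR34a (0.14) and RS40 (0.12) rose less. The calls of 2 of them rested on single libraries: RSZ21 was lost without Col0 library 1 (0.15, adjusted p = 0.0523) or ld library 2 (0.11, adjusted p = 0.137), and RS40 was lost without Col0 library 1 (0.09, adjusted p = 0.0543). SC35 at -0.06 (adjusted p = 0.295) and RS41 at 0.09 (adjusted p = 0.0575) were not called, and RS41 was called without Col0 library 1 (0.13, adjusted p = 0.0117) or ld library 2 (0.12, adjusted p = 0.0270). RS41 was also called with TMM factors (0.11, adjusted p = 0.0295), with the closest libraries averaged (0.11, adjusted p = 0.0496) and by edgeR on recovered reads (0.11, adjusted p = 0.0269).

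In fld, limma called 7 of the other 9 genes higher and 0 lower, against 29.5% and 29.4% of all genes. RSZ22, a zinc-knuckle factor, led with 751, 709 and 732 scaled signal in fld, against 533, 464 and 513 in Col0. It rose by 0.54 ± 0.05 (adjusted p = 1.4e-08). SCL33 rose by 0.45 ± 0.05 (adjusted p = 4.0e-08), SR30 by 0.38 ± 0.04 (adjusted p = 3.9e-08) and SR34a by 0.38 ± 0.04 (adjusted p = 1.4e-08). RS41 (0.21), SR34 (0.16) and RS40 (0.09) followed. The RS40 call was lost without Col0 library 1 (0.06, adjusted p = 0.153) or 3 (0.09, adjusted p = 0.0534) and without fld library 1 (0.10, adjusted p = 0.0639) or 2 (0.08, adjusted p = 0.113), and with the closest libraries averaged (0.10, adjusted p = 0.0692). SC35 at 0.11 (adjusted p = 0.0636) and RSZ21 at 0.04 (adjusted p = 0.496) were not called, and SC35 was called without Col0 library 1 (0.16, adjusted p = 0.0122), with TMM factors (0.13, adjusted p = 0.0295) and by edgeR on recovered reads (0.13, adjusted p = 0.0309). The fld and ld comparisons share the 3 Col0 libraries of set 1.

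In pol2a of set 2 most SR genes fell. Limma called 6 of the other 9 genes lower and 0 higher, against 30% and 30.2% of all genes. RSZ21, the other zinc-knuckle factor, had 447, 484 and 472 scaled signal in pol2a, against 849, 832 and 788 in Col0. It fell by 0.81 ± 0.06 (adjusted p = 2.5e-10). SR34 had 1205, 1266 and 1140.1 in pol2a, against 1779, 1826 and 1934 in Col0, and fell by 0.62 ± 0.04 (adjusted p = 2.0e-10). No library of pol2a reached a library of Col0 for either gene. SCL33 fell by 0.57 ± 0.06 (adjusted p = 1.7e-07), RS40 by 0.48 ± 0.06 (adjusted p = 1.4e-06), SR30 by 0.41 ± 0.05 (adjusted p = 3.4e-07) and SR34a by 0.28 ± 0.05 (adjusted p = 1.0e-04). RSZ22 at 0.06, SC35 at -0.05 and RS41 at -0.10 were not called (adjusted p = 0.311, 0.443 and 0.0925). RS41 was called without pol2a library 2 (-0.13, adjusted p = 0.0386) or Col0 library 1 (-0.15, adjusted p = 0.0128).

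In ld pol2a against pol2a most of the 10 genes were higher. Limma called 9 of the 10 higher and 0 lower, against 26.9% and 27.6% of all genes. RSZ21 had 721, 711 and 617 scaled signal in ld pol2a, against 447, 484 and 472 in pol2a, and rose by 0.54 ± 0.06 (adjusted p = 1.9e-07). SCL33 had 979.8, 905 and 819 in ld pol2a, against 596, 684 and 615 in pol2a, and rose by 0.51 ± 0.06 (adjusted p = 1.2e-06). SR30 had 1315, 1409 and 1286 in ld pol2a, against 962, 969 and 906 in pol2a, and rose by 0.50 ± 0.05 (adjusted p = 3.0e-08). In all 3 the groups did not overlap. SR34a rose by 0.47, SR34 by 0.32, RS40 by 0.31, RS41 by 0.19 and RSZ22 by 0.14. The RSZ22 call was lost without pol2a library 1 (0.12, adjusted p = 0.107) or 3 (0.13, adjusted p = 0.0771), or without ld pol2a library 1 (0.09, adjusted p = 0.192) or 3 (0.15, adjusted p = 0.0527). SC35 at -0.12 (adjusted p = 0.0643) was not called, and it was called lower without ld pol2a library 1 (-0.16, adjusted p = 0.0291). Against Col0, which the pol2a comparison also uses, 2 of the other 9 were called higher in ld pol2a and 4 lower, against 29.1% and 28.6% of all genes. Those higher were RSZ22 (0.20) and SR34a (0.19), and those lower were SR34 (-0.30), RSZ21 (-0.27), SC35 (-0.17) and RS40 (-0.17). The SC35 call was lost without Col0 library 2 (-0.12, adjusted p = 0.0751), and that of RS40 without Col0 library 2 or 3 or ld pol2a library 3 (-0.13, -0.15 and -0.09). In deposited signal all 10 were higher in ld pol2a than in Col0.

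In set 3 the changes were small. Limma called 4 of the other 9 genes lower in ld and 0 higher, against 19.4% and 19.2% of all genes. SR30 had 2667, 2782 and 2680.5 scaled signal in ld, against 3200, 3315 and 3488 in Col0, without overlap, and fell by 0.30 ± 0.03 (adjusted p = 3.3e-05). SCL33 fell by 0.17 ± 0.05 (adjusted p = 0.0101), SR34 by 0.17 ± 0.03 (adjusted p = 6.3e-04) and RS40 by 0.12 ± 0.04 (adjusted p = 0.0196). The RS40 call was lost without Col0 library 2 (-0.10, adjusted p = 0.0659), ld library 2 (-0.12, adjusted p = 0.0656) or ld library 3 (-0.08, adjusted p = 0.0718). The other 5 lay between -0.05 and 0.00. On the deposited scale all 9 were higher in ld, by 0.39 to 0.69, against a median of 0.69 over all genes.

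**Figure D3:**
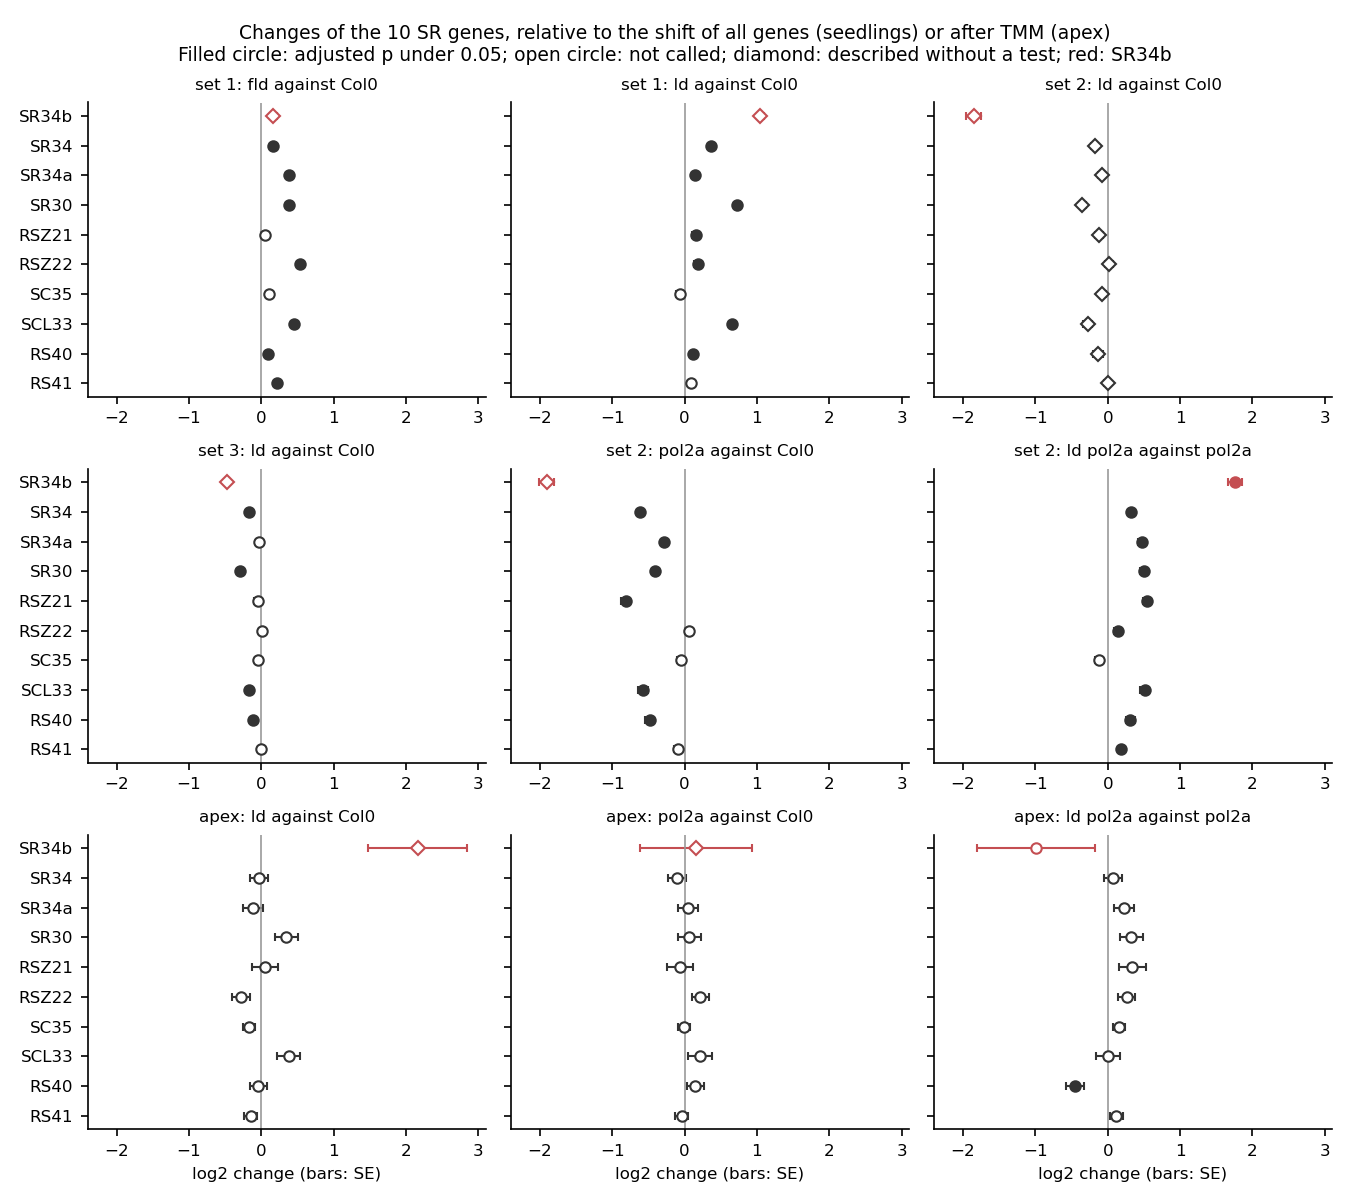
Change (log2) of the 10 SR genes in 9 comparisons, relative to the shift of all genes in seedlings and after TMM scaling in apices, with bars for SE. SR34b, in red, lies farther from 0 than the other 9 genes in ld of sets 1 to 3, in pol2a of set 2 and in ld pol2a against pol2a of set 2, and has the widest bars in apices.

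In apices few SR genes passed the test. SR34b had 102, 43 and 7 reads in ld, against 7, 15 and 10 in Col0, so that ld libraries 1 and 2 stood above Col0 and library 3 did not. Its change was 2.16 ± 0.68. It was 1.23 without ld library 1 and 2.67 without ld library 3, the one that stood apart. In ld pol2a it had 13, 7 and 3 reads, against 12, 8 and 15 in pol2a, a change of -0.99 ± 0.82 (adjusted p = 0.468, edgeR). In pol2a against Col0, again with no test, it differed by 0.16 ± 0.78. With errors this wide, SR34b differences well above the SE could also go uncalled at this depth. The median change of the other 9 genes in ld was -0.04, and edgeR called 0 of them in either direction, against 0.38% of genes higher and 0.588% lower. With the replicate number as a block edgeR called 524 genes in place of 181, and still 0 of these 9. DESeq2 also called 0 of these 9, and the unadjusted edgeR p was under 0.05 for RSZ22 and SCL33. Without ld library 3, SCL33 (0.56, adjusted p = 0.0174) and SR30 (0.51, adjusted p = 0.0260) were called higher, where all 3 libraries gave 0.38 ± 0.16 and 0.35 ± 0.16. SCL33 had 21.0, 19.1 and 12.9 CPM in ld, against 13.3, 13.1 and 14.3 in Col0. SR30 had 20.6, 18.5 and 13.0 CPM in ld, against 13.7, 14.4 and 12.9 in Col0. In both, ld libraries 1 and 2 lay above all Col0 libraries and library 3 lay among or below them.

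In the double mutant, edgeR made 2 apex calls among these genes. RSZ22 had 79.8, 92.2 and 91.5 CPM in ld pol2a, against 66.3, 61.5 and 60.8 in Col0, and rose by 0.48 ± 0.12 (adjusted p = 0.0114, edgeR). It was the only one of the other 9 called in that comparison, against 14.8% of genes called higher and 10.9% lower, and the call was lost without Col0 library 2 (0.44, adjusted p = 0.0529) or ld pol2a library 2 (0.42, adjusted p = 0.0663) or 3 (0.43, adjusted p = 0.0631). RS40 had 45.5, 54.3 and 46.8 CPM in ld pol2a, against 60.6, 68.6 and 70.9 in pol2a, and fell by 0.45 ± 0.12 (adjusted p = 0.0276, edgeR). Both pairs of groups were free of overlap. It was again the only one of the 10, against 5.89% of genes called lower and 8.43% higher, and the call was lost without pol2a library 2 (-0.45, adjusted p = 0.0812) or 3 (-0.43, adjusted p = 0.0710) or ld pol2a library 1 (-0.42, adjusted p = 0.0714) or 3 (-0.44, adjusted p = 0.103). In pol2a against Col0, 0 of the other 9 were called by edgeR or DESeq2, against 3.7% of genes higher and 2.33% lower, and 0 had an unadjusted edgeR p under 0.05. For the interaction, edgeR called 0 of the other 9, against 5.13% of genes higher and 2.41% lower, with an unadjusted p under 0.05 for RSZ22, SC35 and RS40. RSZ22 was at 0.55 ± 0.17 (adjusted p = 0.0704, edgeR), and DESeq2 called it (0.54, adjusted p = 0.0425). Without ld library 3, edgeR called RSZ22 (0.63, adjusted p = 0.0183), SCL33 (-0.57, adjusted p = 0.0312) and RS40 (-0.51, adjusted p = 0.0418), and without pol2a library 1 it called RSZ22 (0.64, adjusted p = 0.0400). SR34b, given with no test, was at -3.15 ± 1.07. In apices the shoot meristem markers summed to 21.9 to 23.6 CPM in ld pol2a, 12.7 to 14.7 in ld, 22.2 to 24.5 in pol2a and 9.81 to 12.1 in Col0. Their part in the RSZ22 and RS40 values was not tested.

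SR34b and SR34 were also set against each other within each library, which needs no scaling between libraries. SR34b was 34.2 to 37.0% of SR34 in ld of set 1, against 21.5 to 22.9% in Col0. In set 2 it was 19.8 to 21.9% in ld pol2a, 5.34 to 6.18% in ld, 6.79 to 8.29% in pol2a and 17.6 to 19.4% in Col0. In set 3 it was 21.3 to 22.9% in ld, against 26.8 to 27.9% in Col0. The log2 ratio differed by 1.43 ± 0.09 between ld pol2a and pol2a, without overlap and with the smallest p that 3 against 3 libraries allow (p = 0.1, exact two-sided permutation test). In fld the ratio was 21.2 to 23.1%, against 21.5 to 22.9% in Col0. Described without a test, the log2 ratio against Col0 differed by 0.00 in fld, by -1.28 in pol2a and by 0.68, -1.68 and -0.31 in ld of sets 1, 2 and 3. In apices SR34b was 0.406 to 7.84% of SR34 in ld and at most 1.04% in each of the other groups. It was 0.178 to 0.631% in ld pol2a, against 0.645 to 1.03% in pol2a. The log2 difference was -1.10 ± 0.50, also without overlap and with the opposite sign to set 2 (p = 0.1, exact two-sided permutation test). Those values rested on few SR34b reads, 13, 7 and 3 in ld pol2a and 12, 8 and 15 in pol2a. The edgeR test did not call SR34b in this comparison.

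**Figure D4:**
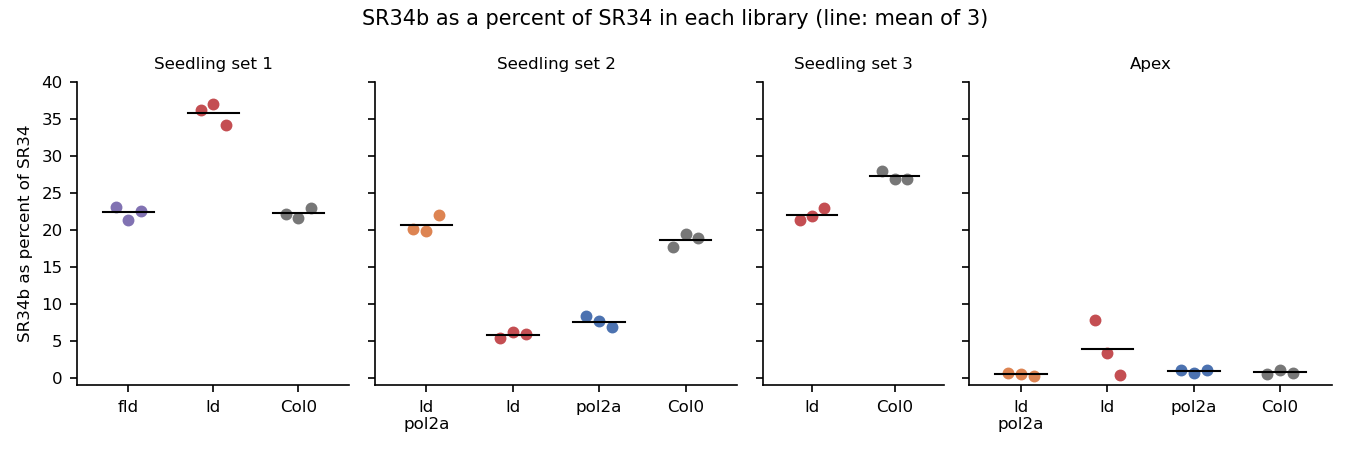
SR34b as a percent of SR34 in each library by group; points are libraries and lines the means of 3. In set 2 the ld and pol2a libraries lie below 10% and the ld pol2a and Col0 libraries between 17.6 and 21.9%.

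Genes between and around SR34b and LD were compared for the ld change. Of 54 genes with locus numbers AT4G02300 to AT4G02700 in the tables, 34 beside SR34b and LD could be tested in sets 1 and 2 and 35 in set 3 and in apices. Their median change was -0.06 in set 1, 0.01 in set 2, -0.01 in set 3 and 0.03 in apices, against 0.00, 0.01, 0.00 and 0.02 over all genes. In set 2 they ran between -0.40 and 0.37, against -1.85 for SR34b, and 4 were called higher and 5 lower, against 18.7% and 16% of all genes. In set 1 limma called 7 higher and 14 lower, against 25.5% and 27.7% of all genes. In set 3 it called 5 higher and 11 lower, against 19.2% and 19.4%, and in apices edgeR called 0, against 0.38% and 0.588%. The 4 with the largest mean absolute ld change were AT4G02420, a lectin receptor kinase gene, AT4G02540, GSTF2 and AT4G02485. AT4G02420, on the far side of SR34b from LD, changed by -1.26 in set 1, 0.37 in set 2 and 0.12 in set 3. AT4G02540, which lies between SR34b and LD, changed by 0.80, -0.30 and -0.20 in those sets, the same signs as SR34b. AT4G02485 lies there too and had those signs as well, with 0.65, -0.36 and -0.09, of which limma called the value of set 1 only. GSTF2 changed by -0.57, -0.24 and -0.31, and 60.5% of its exon length is shared with a gene on the opposite strand. LD itself changed by 1.26, 0.23 and -0.26.

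**Figure D5:**
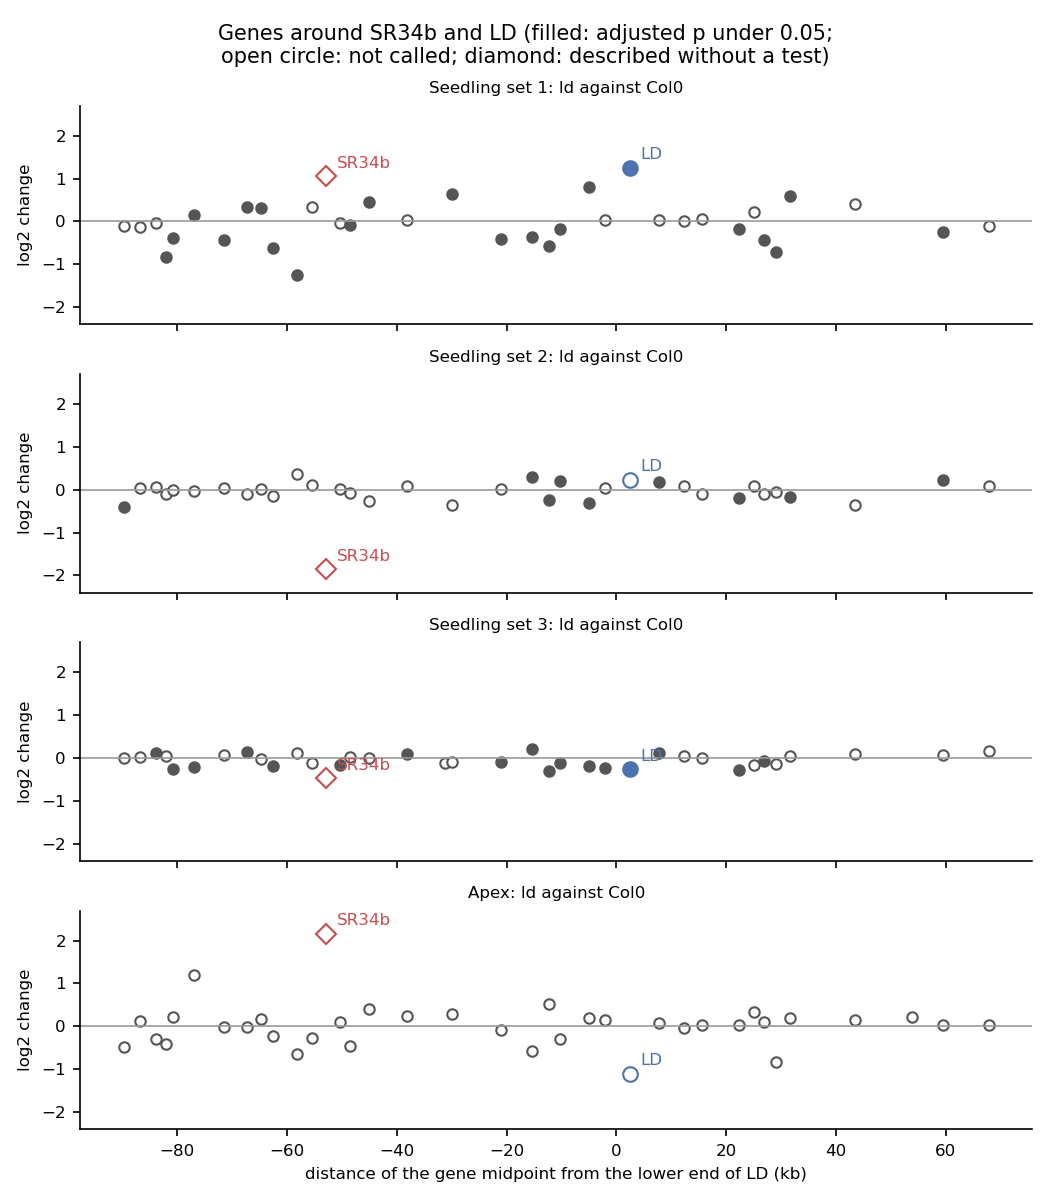
Change (log2) in ld against Col0 of genes around SR34b and LD, by the distance of the gene midpoint from the lower end of LD in kb, one panel per table. In set 2 SR34b lies at -1.85 while the other tested genes lie between -0.40 and 0.37.

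IRT1, the iron and cadmium transporter gene whose splicing involves SR34b, had 4518, 4567 and 5114 signal in ld pol2a of set 2, against 75.9, 80.7 and 69.5 in ld, 143, 123 and 151 in pol2a and 199, 176 and 189 in Col0. Relative to the shift it changed by 3.17 ± 0.08 in ld pol2a, -1.87 ± 0.08 in ld and -0.49 ± 0.08 in pol2a, all against Col0. It rose in ld of set 1 by 0.15 ± 0.04 (adjusted p = 0.00472, limma) and in ld of set 3 by 0.38 ± 0.04 (adjusted p = 1.9e-05, limma), where SR34b was lower. In fld it rose by 1.26 ± 0.04 (adjusted p = 4.4e-16, limma). IRT1 is 1 of 5 root markers, whose summed scaled signal in set 2 was 2830 to 3064 in ld pol2a, 572 to 605 in ld, 713 to 805 in pol2a and 825 to 855 in Col0. In set 1 the sum was 3881 to 4215 in fld, 2051 to 2178 in ld and 1886 to 1951 in Col0, and in set 3 it was 7315 to 7847 in ld and 5981 to 6205 in Col0. In set 2 the root sum, which includes IRT1, was lowest in ld and pol2a, like SR34b. IRT1 alone had a mean scaled signal of 2432 in ld pol2a, 73.5 in ld, 192 in pol2a and 270.5 in Col0. The order of the sums thus follows IRT1, and a sum without IRT1 was not made. The part of root content in the SR34b values was not tested.

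Likeness to SR34b was measured by Pearson's r over the 39 libraries, on values centred on Col0 of each table, among 17496 genes tested in every table. The 5 most alike genes were AT5G03830 (r = 0.974), AT4G01593 (0.956), AT3G04160 (0.952), AT3G07215 (0.948) and AT4G00040 (0.947), of which AT4G01593 and AT3G07215 are annotated as non-coding RNAs. AT5G03830, on chromosome 5, changed in ld by 1.06 in set 1, -1.86 in set 2 and -0.52 in set 3, and in pol2a by -2.22 in set 2. These values lie close to those of SR34b, and none of the 5 lies between SR34b and LD. Among the other 9 SR genes SCL33 was the most alike (r = 0.851, rank 97), then SR30 (0.809, rank 183), RS40 (0.667), SR34 (0.605), RSZ21 (0.458) and SR34a (0.457). RS41 (0.171), SC35 (-0.07) and RSZ22 (-0.09) were the least alike. The 39 libraries share their 13 groups and their depth, so r is a description.

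The other 8 SR genes in the annotation were counted in the same comparisons. In set 1, limma called 2 of the 8 higher and 1 lower in ld, against 25.5% and 27.7% of all genes, with RS31 up by 0.38 and RS31a up by 0.50. In fld it called 3 higher and 0 lower, against 29.5% and 29.4%. In set 2 it called 0 higher and 4 lower in ld, against 18.7% and 16%, with a median of -0.20 over the 8 and RS31 at -0.38. In pol2a it called 1 higher and 4 lower, against 30.2% and 30%, among them RS2Z33 (-0.69) and RS31 (-0.38). In ld pol2a against pol2a it called 6 higher and 0 lower, against 26.9% and 27.6%, among them RS31 (0.67) and RS2Z33 (0.42). In ld pol2a against Col0 it called 5 higher and 1 lower, against 29.1% and 28.6%, with a median of 0.22. The 9 SR genes beside SR34b had 2 higher and 4 lower there. For the interaction, which holds the comparison that chose the genes, 6 were past the threshold higher and 0 lower, against 25.3% and 26.5%. In set 3 it called 0 higher and 3 lower in ld, against 19.2% and 19.4%, among them SCL30A (-0.24). In apices edgeR called 0 of the 8 in ld, against 0.38% and 0.588%, and 0 in pol2a, against 3.7% and 2.33%. It also called 0 in ld pol2a against Col0, against 14.8% and 10.9%, and 0 against pol2a, against 8.43% and 5.89%. For the apex interaction it called 1 higher and 0 lower, against 5.13% and 2.41%. RS2Z33 shares 28.3% of its exon length with genes on the opposite strand, and RS31a 29.1%.

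SR45, an SR-like splicing regulator that is known to affect FLC, fell in fld (-0.54 ± 0.03, adjusted p = 2.0e-11, limma) and in ld (-0.49 ± 0.03, adjusted p = 1.5e-10, limma) of set 1, where most of the 10 genes rose. SR45a, a stress-responsive relative, rose in ld of set 1 (0.35 ± 0.06) and fell in ld of set 3 (-0.25 ± 0.04). In ld apices SR45a had 9.68, 9.75 and 7.89 CPM, against 5.68, 5.59 and 5.59 in Col0, and rose by 0.70 ± 0.14 (adjusted p = 0.0442, edgeR). That comparison called 10 to 2524 genes with 1 library left out, and the SR45a call was not followed through those runs. Of 9 genes for SR protein kinases and import, limma called 3 higher and 3 lower in ld of set 1, against 25.5% and 27.7% of all genes, and 1 higher and 3 lower in ld of set 3, against 19.2% and 19.4%. FC2, an SR kinase of the LAMMER type, rose by 0.40 in ld of set 1 and fell by 0.23 in ld of set 3, and MOS14, the importin that carries SR proteins into the nucleus, fell in fld by 0.66 and in ld of set 1 by 0.51. Of 8 spliceosome partners, 4 were called higher and 1 lower in ld of set 1, 5 lower in pol2a, and 1 higher and 3 lower in ld of set 3. The shares of all genes called higher and lower were 25.5% and 27.7% in ld of set 1, 30.2% and 30% in pol2a and 19.2% and 19.4% in ld of set 3.

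Among these partners were the factors that mark the splice sites. U1-70K, which SR proteins bind at the 5′ splice site, rose by 0.61 ± 0.03 in ld of set 1 (adjusted p = 3.8e-12, limma) and fell by 0.42 ± 0.06 in pol2a (adjusted p = 1.9e-06, limma). It rose by 0.57 ± 0.06 in ld pol2a against pol2a (adjusted p = 3.3e-08, limma) and fell by 0.21 ± 0.03 in ld of set 3 (adjusted p = 4.5e-05, limma). ATU2AF65A, the large subunit of the 3′ splice site factor, fell by 0.15 in fld, rose by 0.53 in ld of set 1, fell by 0.78 in pol2a, rose by 0.64 in ld pol2a against pol2a and fell by 0.22 in ld of set 3. SUS2, the PRP8 core protein of the spliceosome, went the other way in set 3, where it rose by 0.19. Of 5 hnRNP-like antagonists, 3 were called higher and 0 lower in ld of set 1, among them the glycine-rich protein gene GRP7 (0.22), against 25.5% and 27.7% of all genes. In ld of set 3 it was 0 higher and 2 lower, among them GRP7 (-0.30), against 19.2% and 19.4%. In deposited signal every gene of these lists, SR45 and MOS14 included, was higher in fld, in ld of sets 1 and 3 and in ld pol2a than in its comparison group, so the lower values here hold relative to the shift only, except those of pol2a.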

How the data were processed

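RNA was sequenced from 7-day-old seedlings (Trizol, with a spike-in) and from dissected apices (column kit), per the labels' protocols. Trimmomatic 0.38, HISAT2, SAMtools 1.9, featureCounts, deepTools, DESeq2 and the TAIR10 build are named in the submitters' processing notes. The authors deposited apex values as whole counts per gene. Seedling values are deposited as signal, which from the values is gene counts divided by 1 factor per library; 100% were whole multiples of 1 read within 0.1 reads.

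Seedling signal was tested per set with limma 3.58.1 (R 4.3.3, mean-variance trend) on log2(signal + 1), keeping genes whose mean reached 10, in deposited signal and after median-of-ratios scaling; such fold changes understate low genes. Apex counts were tested with edgeR 4.0.16 (quasi-likelihood, robust, TMM, filterByExpr). All groups of a table shared 1 spread. Levels per kb use merged exons of TAIR10.1. Scripts were tested on simulated data. In apices the deviations of same-numbered libraries correlated at 0.271, 0.603 and 0.619 between ld and Col0. Between pol2a and Col0 they correlated at 0.399, 0.511 and 0.275. Replicate numbers could thus act as pairs in these 2 comparisons, from the data alone. The main edgeR tests used no replicate block, and the block was run as an alternative only.

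Alternatives were another pseudocount, filters, TMM or RLE factors, DESeq2 1.42.0, a replicate block and leaving out each library. A further 2, edgeR on recovered reads and averaging the closest libraries, were chosen after seeing the data. The edgeR test on recovered reads called 11178 genes in fld and 9816 in ld of set 1, 6931 for ld and 11731 for pol2a in set 2 and 7840 for ld in set 3. The closest libraries of sets 1 and 3, which differed by less than counting noise, were averaged and counted as 1 sample.

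The 10 genes and all lists were chosen with earlier results of these data known. Named beside them were LD, FLD, POL2A, FLC and IRT1, up to 3 called genes with the smallest p per list and comparison, 4 genes near LD and the 5 most like SR34b.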

Additional observations from a re-analysis of the deposited data

Results flagged for a closer look

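The ld change differed between backgrounds in set 2. The interaction of ld and pol2a, relative to the shift, was 3.61 for SR34b, which is given without a test. Past the limma threshold on the higher side were 7 other genes, against 25.3% of all genes. The interaction holds the ld and Col0 libraries of set 2 that chose the genes, so these values are a description too. They were 0.85 for SR30, 0.79 for SCL33, 0.67 for RSZ21 and 0.55 for SR34a. SR34 was at 0.50, RS40 at 0.45 and RS41 at 0.19. The RS41 value lost its call without any of 7 libraries, at 0.15 to 0.18.

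The ld change also had opposite signs between tables, with all libraries of a group on 1 side, and this difference was not tested. SR34b was at 1.05 in set 1, -1.85 in set 2 and -0.48 in set 3. SR30 was at 0.72, -0.35 and -0.30 in those sets, SCL33 at 0.66, -0.28 and -0.17, and SR34 at 0.36, -0.18 and -0.17. RSZ21 was at 0.15 in set 1 and -0.12 in set 2, RS40 at 0.12 in set 1 and -0.12 in set 3, and RSZ22 at 0.19 in set 1 and -0.28 in apices. Of these, RSZ21 in set 2 and RSZ22 in apices were not called. The calls of RSZ21 and RS40 in set 1 and of RS40 in set 3 were lost with single libraries left out.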

How the results depend on the processing

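P-values in sets 1 and 3 rest on libraries that partly differed by less than counting noise, and SR34b in apices rests on 3 to 102 reads. Every seedling count of called genes stayed within 1.5 times under every alternative run. SR34b kept its direction in seedlings under every alternative run, and was at 0.16 in fld with the closest libraries averaged. Beyond the apex comparisons of ld and pol2a with Col0, replicate numbers did not pair libraries, since not every pair's correlation was over 0.1. With a replicate block the apex ld comparison called 524 genes, against 181 without. Among member calls the block changed those of RS41 in ld of set 1 (0.09, adjusted p = 0.0336, limma) and SR34a in apex ld pol2a against Col0 (0.29, adjusted p = 0.0435, edgeR), both then called, and no other. It called 114 with no filter on low counts and 809 with DESeq2, and 10 to 2524 with 1 library left out, highest without ld library 3. Leaving out 1 apex library gave 515 to 922 genes for pol2a, 2727 to 4157 for ld pol2a, 966 to 2216 for ld pol2a against pol2a and 494 to 3619 for the interaction. For SR34b it gave 1.23 to 2.67 in ld, -0.0507 to 0.43 in pol2a and -3.67 to -2.22 for the interaction. DESeq2 put this interaction of SR34b at -3.21, which is given with no test as well.

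The other reversals were of uncalled values. With edgeR on recovered reads RS41 was at -0.0049 in ld of set 2 and SC35 at -0.0045 in pol2a deposited signal. With averaged libraries RSZ22 was at -0.0068 and RS41 at -0.011 in set 3. SCL33 in apex ld pol2a against pol2a was at -0.0079 with RLE factors, -0.0015 with the block and -0.0069 with DESeq2. With 1 library left out, set 2 gave -0.0219 to 0.0624 for RSZ22 and -0.0490 to 0.0315 for RS41 in ld, -0.0390 to 0.0602 for SC35 and -0.10 to 0.0020 for RS41 in pol2a deposited signal, and -0.12 to 0.0043 for SCL33 in ld pol2a. Set 3 gave -0.0433 to 0.0294 for RSZ22 and -0.0534 to 0.0380 for RS41. Apex ld gave -0.18 to 0.0708 for SR34, -0.23 to 0.0030 for SR34a, -0.20 to 0.20 for RSZ21 and -0.10 to 0.0564 for RS40. Apex pol2a gave -0.0588 to 0.14 for SR34a, -0.15 to 0.0658 for RSZ21 and -0.0426 to 0.0341 for SC35. Apex ld pol2a gave -0.10 to 0.0126 for SR34 against Col0 and -0.10 to 0.0376 for SCL33 against pol2a, and the interaction -0.0071 to 0.23 for SR34 and -0.21 to 0.11 for SR30. The SR34b to SR34 ratio in fld gave -0.0243 with a pseudocount of 5 and -0.0253 to 0.0353 with 1 library left out. The cause of these changes was not tested.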
